A study of Sus scrofa with 6 samples.

Results

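Solute carriers (SLC proteins) are a large superfamily of membrane proteins that move nutrients, ions, metals, vitamins and metabolites into and out of cells and organelles. Some let a substrate flow down its own gradient, others exchange one substrate for another, and many pull their substrate in with sodium or protons. In the pregnant pig the uterine lining and the placenta lie against each other without invasion, so sugars, amino acids, peptides and metals for the conceptus pass through carriers of both layers. In the ovary, carriers feed the steroid-making cells and their mitochondria.

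Transcripts were measured in sow (Sus scrofa) ovary and in uterine tissue that the labels call myometrium, the smooth muscle wall of the uterus, at 3 stages, non-pregnant, early pregnant and late pregnant. There were 6 Affymetrix arrays, 1 for each combination, and the design text counts 9 pigs, 3 at each stage; the sources used here do not state whether RNA was pooled, nor the strain, age, day of gestation or any treatment. The SLC genes were taken as every gene on the platform whose only symbol starts with SLC and a digit, leaving out 1 gene, and a gene with more than 1 probe set was represented by the brightest. This gave 119 genes of 36 families, from 175 probe sets of the 23999 on the array; 3 of the 119 are named after a carrier without being one, namely SLC2A4RG, a DNA-binding regulator, and the scaffold proteins SLC9A3R1 and SLC9A3R2.

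A signal counted as measured above a floor of 81.7, the 40th percentile of all signals, and lower signals were set to the floor ahead of the log2 step. Of the 119 genes, 103 were above the floor on at least 1 array, 65 on all 6 and 16 on none. A further 14 genes were above it only on arrays labelled myometrium and 3 only on ovary arrays. The 16 genes with no signal above the floor included the insulin-responsive glucose carrier SLC2A4, the glutamate carrier SLC1A2, the bile acid carrier SLC10A1 and the organic ion carriers SLC22A2, SLC22A6 and SLC22A8. Tests used limma on the 15882 probe sets that exceeded the floor on 2 arrays or more, and 98 of the 119 SLC genes were among them.

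The tissue labels were set against cell type markers. All 10 measured epithelial markers passed the test as higher on the arrays labelled myometrium, against 2.23% of all tested probe sets. Of 9 smooth muscle markers 0 did. The summed epithelial signal lay between 47731 and 56777 on those arrays and between 1294 and 1544 on the ovary arrays. The 9 smooth muscle markers summed to between 12867 and 24917 on the arrays labelled myometrium, against 29235 to 46761 on the ovary arrays. The 2 pregnant arrays labelled myometrium also carried trophoblast transcripts, with a summed signal of 7 markers of 700.4 on the non-pregnant, 26642 on the early pregnant and 39850 on the late pregnant array. A single marker, PAG6, made up most of the sum on both pregnant arrays. In order of stage, 2, 7 and 4 of the 7 markers were above the floor. The steroidogenic marker STAR read 13.2, 5573 and 6906.8 on the same 3 arrays. Of 12 luteal and granulosa markers 5, 8 and 5 were above the floor there. Against the non-pregnant array, 4 of 8 measured were 2-fold higher at each pregnant stage, and 0 early and 1 late were lower. Of all measured probe sets 8.76% were higher early and 10.9% late. On the ovary arrays the 7 trophoblast markers summed to between 6212 and 9842, of which CYP19A3, an aromatase gene that the ovary also uses, gave 5059.9 to 8690.6. The label of the uterine tissue is kept here only as a label. Between 57.4% and 61.6% of probe sets were above the floor on an array, and the GAPDH 3' to 5' ratio, a sign of RNA quality, ran from 1.51 to 2.33, with the highest ratio on the non-pregnant ovary array.

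The first comparison asked which SLC genes differed between the tissues at all stages together. More SLC genes were higher on the arrays labelled myometrium than in ovary. In an additive limma fit of tissue and stage with Benjamini-Hochberg adjustment over all 15882 probe sets, 7 of 98 SLC genes (7.14%) were higher on the arrays labelled myometrium, against 2.23% of all probe sets. Higher in ovary were 2 of 98 (2.04%), against 2.84% of all. The median log2 difference, ovary minus myometrium, was -0.48 over the 98 genes and 0.01 over all tested probe sets, and 71.4% of the SLC genes lay below 0, against 49.0% of all. The 3 arrays of a tissue come from different stages and are no replicates, so the p-values measure agreement across these 6 arrays, not across animals. Where arrays of the dimmer tissue lay under the floor, the size of the difference is a lower limit. In bulk tissue, fewer cells of a type and less RNA per cell cannot be told apart. The epithelial markers were higher on the same arrays as the 7 genes, and their part in these differences was not tested.

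The peptide carrier SLC15A2, which takes up small peptides with protons at high affinity, had the most extreme tissue difference of the 9. Its signal was 34.5, 30.8 and 25.6 on the non-pregnant, early and late pregnant ovary arrays, and 851.1, 3851.8 and 6312.3 on the arrays labelled myometrium. Every ovary signal was under the floor, so the arrays labelled myometrium were at least 33.6-fold higher (log2 difference -5.07 ± 0.58 SE, n = 3 arrays a tissue, limma adjusted p = 0.0141). All 3 of its probe sets passed the test in that direction, the others at -4.41 and -4.22. The other peptide carrier, the low-affinity SLC15A1, was under the floor in every ovary sample and read 72.7, 350.2 and 779 on the arrays labelled myometrium. Its difference of -1.78 did not pass (limma adjusted p = 0.169).

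The zinc importer SLC39A2 followed, at 130, 159.4 and 67.8 in ovary and 1022.1, 7878.5 and 4706.4 on the arrays labelled myometrium. The groups did not overlap, and the difference was -4.82 ± 0.60 (limma adjusted p = 0.0175). The other 7 zinc carriers tested, importers of the SLC39 family and exporters of the SLC30 family, did not pass, with differences from -1.08 for SLC30A3 to 0.63 for SLC30A5.

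SLC3A1 is the heavy chain that brings the cystine and cationic amino acid carrier SLC7A9 to the cell surface. Its brightest probe set read 101, 79.4 and 89.3 in ovary and 659.5, 2877.8 and 3589.7 on the arrays labelled myometrium, a difference of -4.39 ± 0.57 (limma adjusted p = 0.0182). Its other probe set did not show this. It read 715.7, 949.5 and 887.9 in ovary and 1102.5, 553.9 and 468.2 on the arrays labelled myometrium, with a difference of 0.36 (limma adjusted p = 0.635), so the tissue difference of SLC3A1 depends on the probe set. The light chain SLC7A9 was under the floor on each ovary array, read 338.7, 209 and 25.8 on the arrays labelled myometrium in order of stage, and did not pass (-1.14, limma adjusted p = 0.187). The brightest SLC3A1 probe set was highest on the late pregnant array labelled myometrium, where SLC7A9 was under the floor. The heavy chain of the ubiquitous exchangers, SLC3A2, differed by -0.38 (limma adjusted p = 0.489), with every ovary signal between 196.9 and 233.2 and every signal labelled myometrium between 254.7 and 307.7.

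SLC44A4, a choline carrier-like protein of epithelia, had the smallest adjusted p of the SLC genes. It read 25.2, 104.9 and 70.2 in ovary and 1725.5, 1115.8 and 1646.5 on the arrays labelled myometrium, with little spread between stages there (difference -4.05 ± 0.34, limma adjusted p = 0.00755). Its family member SLC44A2 differed by 0.37 toward ovary and did not pass (limma adjusted p = 0.507).

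SLC35A3, which carries UDP-N-acetylglucosamine into the Golgi for glycan synthesis, read 406.2, 339 and 558.1 in ovary and 2098.4, 2468.5 and 1906.4 on the arrays labelled myometrium (difference -2.34 ± 0.30, limma adjusted p = 0.0178). The other 9 nucleotide sugar family members did not pass with their brightest probe sets. Among them SLC35F5, a member without an established substrate, read 6174.1, 4551.5 and 6171.4 in ovary against 1705.4, 3907.6 and 2233.1 (difference 1.18, limma adjusted p = 0.120). Its other 2 probe sets did pass as higher in ovary, at 2.49 (limma adjusted p = 0.0145) and 2.93 (limma adjusted p = 0.0270).

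The metal carriers went in both directions. SLC31A1, the copper importer of the plasma membrane, read 374.4, 426.2 and 495.2 in ovary and 1339.2, 1656.7 and 1382.5 on the arrays labelled myometrium (difference -1.76 ± 0.25, limma adjusted p = 0.0232). SLC41A1, a magnesium carrier, was higher in ovary, at 877.8, 716.9 and 888.3 against 137.3, 267.3 and 109.1 (difference 2.38 ± 0.40, limma adjusted p = 0.0342). For both genes the tissues did not overlap. Averaging the log2 values of all its probe sets ended the call for each, at -0.88 (limma adjusted p = 0.134) for SLC31A1 and 1.29 (limma adjusted p = 0.0640) for SLC41A1; the second probe set of SLC31A1 was above the floor on 1 array. The endosomal iron carrier SLC11A2 did not pass (-1.47, limma adjusted p = 0.138), although its ovary signals of 93.2 to 112.4 all lay below its signals of 128.4 to 412.9 on the arrays labelled myometrium.

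The ADP/ATP carriers of the inner mitochondrial membrane, which export ATP to the cytosol, differed among themselves. SLC25A5 read 4177.5, 3692.2 and 4433.1 in ovary and 7934.7, 8714.4 and 9314.2 on the arrays labelled myometrium (difference -1.08 ± 0.17, limma adjusted p = 0.0274). Without the intensity trend this call ended (limma adjusted p = 0.0672). SLC25A4, the muscle and heart form, had the other sign, with 1125.6, 824.3 and 1240.5 in ovary and 644.9, 414.8 and 576.8 on the arrays labelled myometrium, but its 0.97 did not pass (limma adjusted p = 0.0948). SLC25A6 overlapped between tissues and differed by -0.11 (limma adjusted p = 0.662). Of the 20 mitochondrial carriers tested, SLC25A5 was the 1 that passed, and their median difference was -0.06. The oxodicarboxylate carrier SLC25A21, at 447.1 to 811.8 in ovary and 241.7 to 275 on the arrays labelled myometrium, differed by 1.30 (limma adjusted p = 0.0929).

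Besides SLC41A1, the gene higher in ovary was SLC5A4, a member of the sodium-glucose cotransporter family. It read 617.2, 345 and 345.7 in ovary and 102.4, 71.7 and 95.3 on the arrays labelled myometrium (difference 2.18 ± 0.30, limma adjusted p = 0.0200). With the floor at the 60th percentile the call ended (0.77, limma adjusted p = 0.139). The serotonin carrier SLC6A4 was above the floor only in ovary, at 141.8, 254.8 and 122.6, and the ascorbate carrier SLC23A2 read 134.6, 198.1 and 203.9 in ovary against 38, 54.3 and 91.8. Neither passed (limma adjusted p = 0.111 and 0.0669), although SLC6A4 did with the floor at the 25th percentile and with a pseudocount of 16.

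**Figure D1:**
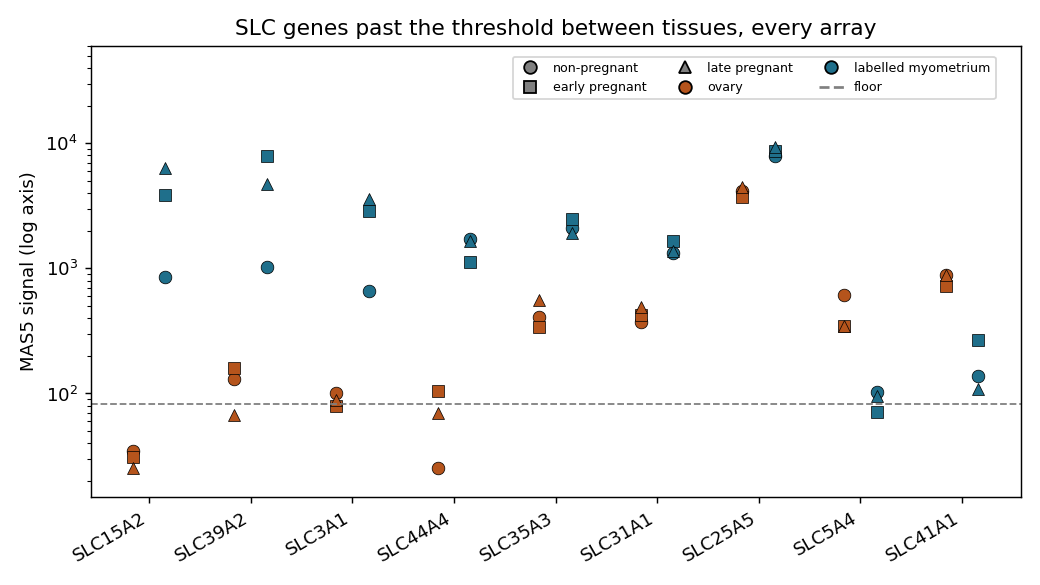
MAS5 signal (log axis) of the 9 SLC genes past the limma threshold between tissues, on each of the 6 arrays. Symbols give the stage, colours the tissue and the dashed line the floor of 81.7. No gene has overlapping tissues; SLC15A2 lies under the floor on every ovary array. Levels of different genes are not comparable, since each has its own probes.

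Some genes with large differences did not pass. SLC28A3, a sodium-coupled nucleoside carrier, was close to 0 in ovary at 1.2, 3.1 and 3. It read 5758.1, 1658.4 and 218 on the arrays labelled myometrium, which were at least 15.6-fold higher on average (limma adjusted p = 0.0636). With the floor at the 25th percentile, and with a pseudocount of 16, SLC28A3 did pass. SLC2A12, a glucose carrier, read 106.9, 123.1 and 5.9 in ovary and 304.3, 3806.4 and 5060 on the arrays labelled myometrium (difference -4.14, limma adjusted p = 0.0545). Both genes were highest on an array labelled myometrium, SLC28A3 on the non-pregnant and SLC2A12 on the late pregnant one.

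Split by stage, and with no test because each side was 1 array, more SLC genes were 2-fold higher on the array labelled myometrium than in ovary in each pair, whereas the median lay further toward that tissue than the median of all probe sets in the pregnant pairs only. In the non-pregnant pair 20 of 93 measured SLC genes were at least 2-fold higher on the array labelled myometrium (8.67% of all measured probe sets) and 6 were higher in ovary (8.74% of all). In the early pregnant pair the counts were 36 of 99 (10.6% of all) and 5 (12.4% of all). In the late pregnant pair they were 36 of 98 (12.6% of all) and 10 (12.0% of all). The median difference of the tested SLC genes was -0.0046, -0.51 and -0.54 in order of stage, while that of all tested probe sets was -0.02, 0.06 and 0.0009. By class, the sugar families had medians of -0.0046, -1.17 and -1.21 in order of stage, and the amino acid carriers -0.26, -0.75 and -0.57.

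**Figure D2:**
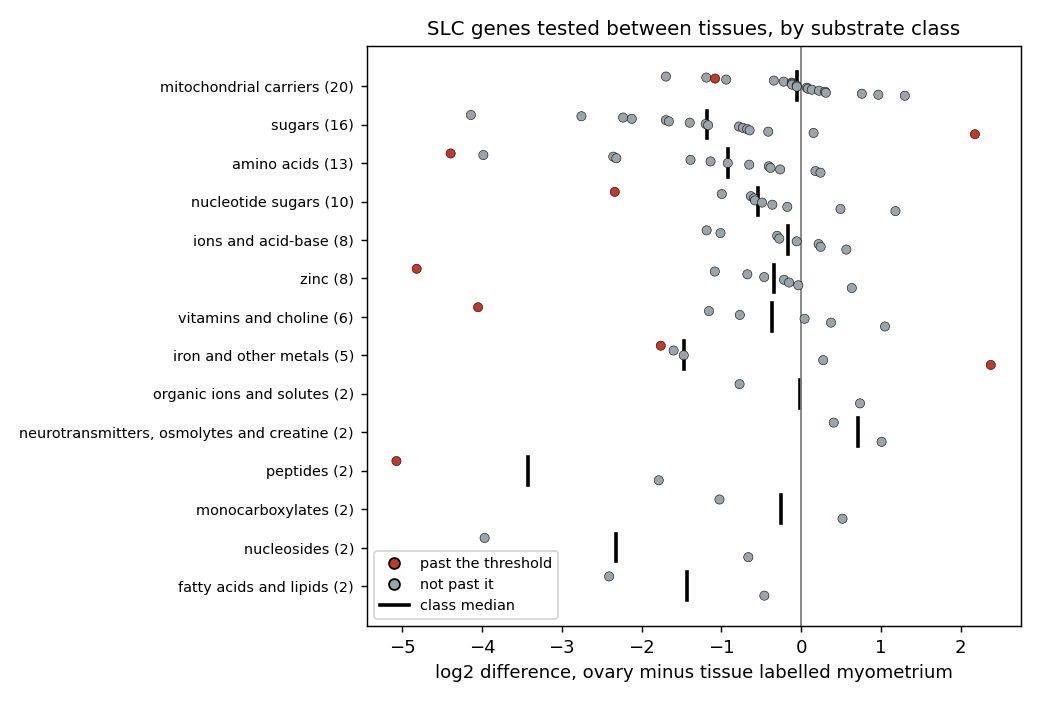
Log2 difference, ovary minus the tissue labelled myometrium, of the 98 tested SLC genes by substrate class, with the number tested in parentheses. Points are genes (red, past the limma threshold), black bars class medians. Of the 16 sugar family genes 14 lie toward the tissue labelled myometrium, whereas the 20 mitochondrial carriers are spread on both sides of 0.

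The tissue counts rested on few arrays. Without the non-pregnant arrays 10 genes were higher on the arrays labelled myometrium and 0 in ovary, and 4 of the 9 calls were kept; without the late pregnant arrays the counts were 4 and 0. Over all tested probe sets the same fits called 260 higher on the arrays labelled myometrium and 138 higher in ovary without the non-pregnant arrays, and 118 and 109 without the late pregnant arrays. Without the early pregnant arrays, or without the filter on low signals, 0 probe sets of any kind passed in limma, so these fits say nothing particular about SLC genes, of which 20 and 19 had an unadjusted p under 0.05.

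The second comparison asked whether stage changed SLC transcripts in the same way in both tissues. In the shared stage effect of the limma fit, 0 of 98 SLC genes passed for early against non-pregnant (0.0% of all probe sets), for late against non-pregnant (0.0% of all) or for late against early pregnant (0.0% of all). At an unadjusted p under 0.05 there were 3, 6 and 0 SLC genes, and 686, 964 and 261 probe sets in all. The stages were therefore described within each tissue as ratios of 2 arrays, with no test, and a 2-fold ratio served as the size threshold. A ratio whose dimmer array was under the floor is given as "at least".

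In ovary the SLC genes differed little between stages, and so did all probe sets. For early and late against non-pregnant and late against early, the median absolute log2 ratio of SLC genes was 0.31, 0.33 and 0.25. That of all measured probe sets was 0.29, 0.29 and 0.26. Early against non-pregnant, 0 of 88 measured genes were 2-fold higher (2.45% of all measured probe sets) and 2 were 2-fold lower (2.15% of all). Late against non-pregnant, 2 of 87 were higher (2.92% of all) and 2 lower (3.65% of all). Late against early pregnant, 1 of 86 was higher (1.5% of all) and 2 were lower (2.71% of all). On both pregnant arrays relative to the non-pregnant one, 0 of 89 were higher (1.08% of all) and 1 was lower (1.08% of all).

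That 1 gene was SLC5A10, a sodium-coupled carrier of fructose and mannose, at 185.4, 87 and 54.8 on the non-pregnant, early and late pregnant ovary arrays. SLC46A2, a relative of the folate carrier first described in thymus, read 340.1, 153 and 218.9, and SLC7A7, the light chain of a cationic amino acid exchanger, read 259.4, 163.5 and 103.1. Both were highest on the non-pregnant array. SLC7A7 is known in macrophages, and the summed signal of 7 macrophage markers was 6865, 3670 and 3491 on the same arrays. On the arrays labelled myometrium the sum was 3849, 7721 and 7755 in order of stage, and SLC7A7 read 311, 309.4 and 175.9. The median log2 ratio of the 7 markers against the non-pregnant array was -0.82 early and -0.13 late there. The larger sums on the pregnant arrays therefore do not stand for most of the markers. The part of macrophages in the result was not tested.

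Higher on the late pregnant ovary array were SLC16A13, of the monocarboxylate carrier family, at 88.2, 131.5 and 256.1, and SLC33A1, the acetyl-CoA carrier of the endoplasmic reticulum, at 369.1, 658.2 and 849.3. The next probe set of SLC33A1 read 608.9, 720 and 778, in the same direction but short of 2-fold. SLC16A3, the lactate exporter of glycolytic cells, read 105, 40.4 and 186.6 and was at least 2.28-fold higher on the late than on the early pregnant array. SLC6A4 and the organic cation carrier SLC22A3 were highest on the early pregnant ovary array, at 254.8 and 188.1, and both were at least 2-fold lower on the late one. With the floor at the 25th percentile the ovary counts of 2-fold genes ran from 1 to 8 over the 3 stage pairs, and with the floor at the 60th percentile from 0 to 1.

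In the tissue labelled myometrium the SLC genes differed far more between stages, and mostly toward pregnancy. Early against non-pregnant, 30 of 96 measured SLC genes (31.2%) were 2-fold higher, against 8.76% of all measured probe sets, and 8 were 2-fold lower (10.3% of all). Late against non-pregnant, 27 of 98 (27.6%) were higher, against 10.9% of all, and 8 were lower (12.6% of all). Late against early pregnant, 11 of 99 were higher (5.87% of all) and 9 lower (5.62% of all). On both pregnant arrays relative to the non-pregnant one, 24 of 100 were 2-fold higher, against 5.54% of all, and 4 were 2-fold lower (6.18% of all).

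The median log2 ratio of the measured SLC genes was 0.26 for early and 0.29 for late against non-pregnant, whereas that of all measured probe sets was -0.17 and -0.14. With each array centred on its median, all probe sets had medians of -0.03 and -0.04, and the SLC genes 32 higher and 6 lower, and 29 higher and 7 lower. Centring also moved the split of all 2-fold probe sets early against non-pregnant from 46.0% higher to 59.6% higher. With the floor at the 60th percentile, 15 rather than 24 SLC genes were 2-fold higher on both pregnant arrays. The pregnant arrays labelled myometrium are those with trophoblast and STAR transcripts. The trophoblast marker PAG6 read 75.2, 22021.8 and 28500.2 in order of stage, and GATA3 59.2, 3167.8 and 2777.6. Of the trophoblast markers measured, 4 of 7 were 2-fold higher on the early pregnant array and 3 of 5 on the late one, with 0 lower. The shares of all measured probe sets that were higher were 8.76% and 10.9%. Of 10 epithelial markers, 1 was 2-fold higher and 3 were 2-fold lower on the early pregnant array. On the late one, 1 was higher and 0 were lower. Among them EPCAM read 10255.6, 10845.3 and 9667 in order of stage. The part of these cell types in the stage ratios was not tested.

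**Figure D3:**
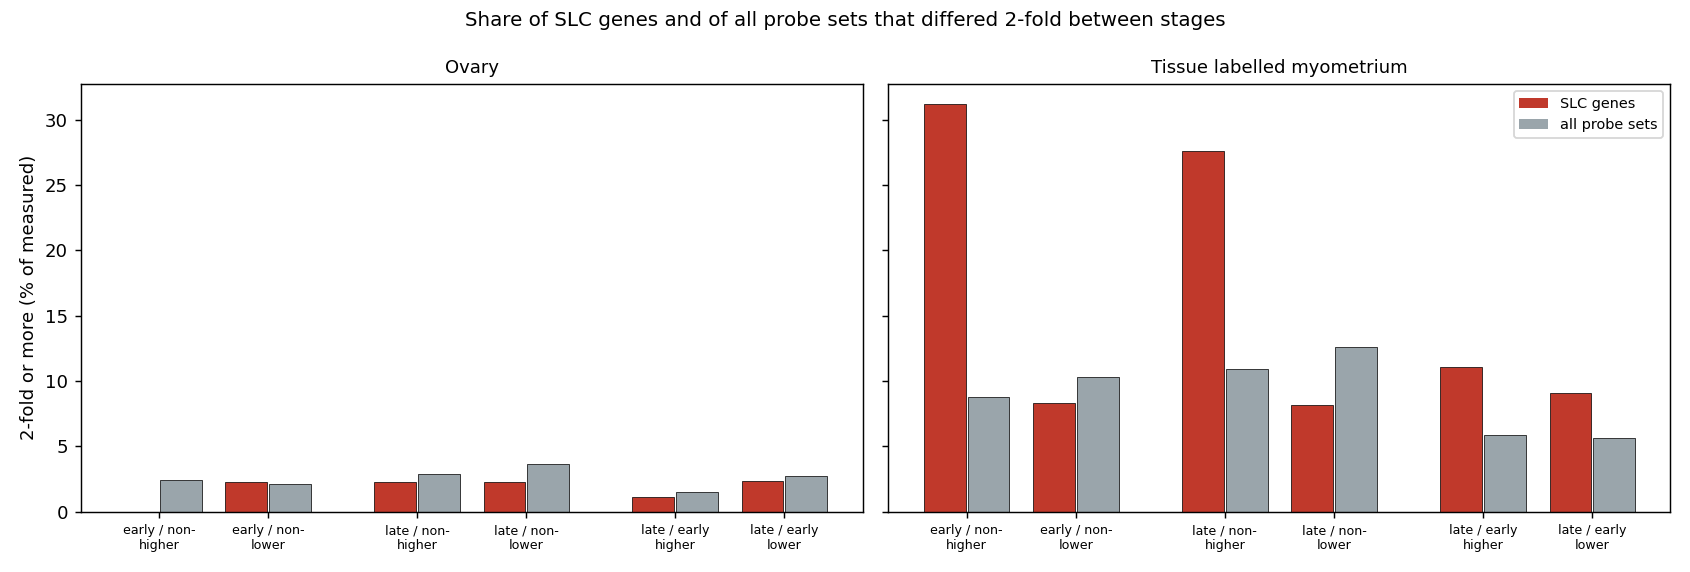
Percentage of measured SLC genes (red) and of all measured probe sets (grey) that were 2-fold or more higher or lower between 2 arrays of a tissue. In ovary the red bars stay at or below 2.33%, near the grey ones. On the arrays labelled myometrium 31.2% and 27.6% of SLC genes were higher in early and late pregnancy, against 8.76% and 10.9% of all.

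Of the classes, the sugar families held the most genes that were higher in pregnancy, 10 of 30 early and 8 of 27 late. The class follows the family name, so it also counts SLC5A5, SLC5A6 and SLC2A4RG, which are not sugar carriers. Of 16 measured members, 10 were 2-fold higher and 2 lower on the early pregnant array labelled myometrium, with a median log2 ratio of 1.39. On the late one 8 were higher and 1 lower. Of all measured probe sets, 8.76% were higher and 10.3% lower early, and 10.9% and 12.6% late. In the SLC2 family of facilitative glucose carriers, 5 of 7 measured members were 2-fold higher at both pregnant stages. SLC2A1, the widespread basal glucose carrier, read 612, 7301.6 and 3758.9 in order of stage, which is 11.9-fold and 6.14-fold above the non-pregnant array. SLC2A3, a high-affinity glucose carrier, read 762.7, 4126.9 and 5278.7. On the ovary arrays both stayed between 449.5 and 843.9 at all stages.

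SLC2A12 was 12.5-fold and 16.6-fold higher on the early and late pregnant arrays than on the non-pregnant one. SLC2A5, the fructose carrier, read 83.5, 594 and 4510.7, and the late pregnant signal was 54.0-fold above the non-pregnant one, whose signal was just above the floor. SLC2A2, the low-affinity glucose carrier of liver and pancreas, read 6, 650.7 and 321.8, at least 7.96-fold and 3.94-fold higher. The 2 SLC2 genes that did not reach 2-fold were SLC2A8, an intracellular carrier at 520.7, 367.6 and 332.4, and SLC2A4RG, which is no carrier.

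The sodium-coupled SLC5 family, which the class counts with the sugars, was split. SLC5A1, the concentrating glucose carrier of epithelia, was highest on the non-pregnant array, at 1039.7, 117.1 and 63.5, so that it was 8.88-fold lower in early and at least 12.7-fold lower in late pregnancy. SLC5A6, a carrier of the vitamins biotin and pantothenate rather than of a sugar, read 220.4, 1034.8 and 2095.1, 4.70-fold and 9.51-fold higher. The array with the highest SLC5A1 signal thus had the lowest SLC2A1, SLC2A3 and SLC5A6 signals among those labelled myometrium. SLC37A4, which carries glucose 6-phosphate into the endoplasmic reticulum, read 347.8, 811.9 and 721.4, and SLC45A3, of a family of putative sugar carriers, 120.2, 400.1 and 409.4.

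Enzymes of glucose use were set beside the sugar families. Of 11 measured glycolytic genes and relatives, 0 were 2-fold higher on either pregnant array labelled myometrium (8.76% of all early and 10.9% late). A list of 11 is too short to tell 0 from these shares. Their median log2 ratios were 0.0089 and 0.02. The lactate dehydrogenase subunit LDHA read 8273.3, 11464.1 and 10958.9 and LDHB 20516.2, 13395.3 and 9424.4. Between tissues 1 of the 11 passed, the glycolytic enzyme ENO1, which was higher in ovary (difference 1.19, limma adjusted p = 0.0172), as were 2.84% of all probe sets.

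Among amino acid carriers, 5 of 14 measured members were 2-fold higher and 1 was lower on the early pregnant array labelled myometrium (8.76% and 10.3% of all). On the late one 5 of 13 were higher and 2 lower (10.9% and 12.6% of all). SLC7A4, which resembles the cationic amino acid carriers but has no settled substrate, read 56.6, 2202.8 and 11950, at least 27.0-fold and 146-fold higher. It was under the floor in every ovary sample, at 41.6, 35.2 and 27.3. SLC1A1 and SLC1A3, sodium-coupled glutamate and aspartate carriers, were under the floor on the non-pregnant array and read 1562.8 and 821.7 on the early and 899 and 1085.7 on the late pregnant one. The second probe set of SLC1A1 read 121.4, 330.7 and 223.6, in the same direction but with smaller ratios.

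SLC1A5, the glutamine carrier, was similar on the non-pregnant and early pregnant arrays and higher late, at 604.7, 811.5 and 2953.2 (4.88-fold over non-pregnant). SLC7A1, the main importer of arginine and lysine, went the other way, at 1949.1, 841 and 868.1, and was 2.32-fold and 2.25-fold lower. The glutamine and alanine carriers SLC38A1 and SLC1A4 and the lysosomal sensor SLC38A9 did not reach 2-fold at any stage pair. The amino acid response genes, which many cells switch on when amino acids run short, included the serine synthesis enzymes PHGDH at 13680.1, 436.4 and 1079.7 and PSAT1 at 14957.6, 2464.4 and 2464.5. Both were highest on the non-pregnant array labelled myometrium, as SLC7A1 was; of the 6 genes in that list 1 was 2-fold higher and 2 were lower at each pregnant stage.

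Both peptide carriers were 2-fold higher at both pregnant stages. SLC15A2 was 4.53-fold and 7.42-fold above the non-pregnant array, and SLC15A1 at least 4.29-fold and 9.53-fold. The heavy chain SLC3A1 was 4.36-fold and 5.44-fold higher by its brightest probe set, but its other probe set was lower, at log2 ratios of -0.99 and -1.24.

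**Figure D4:**
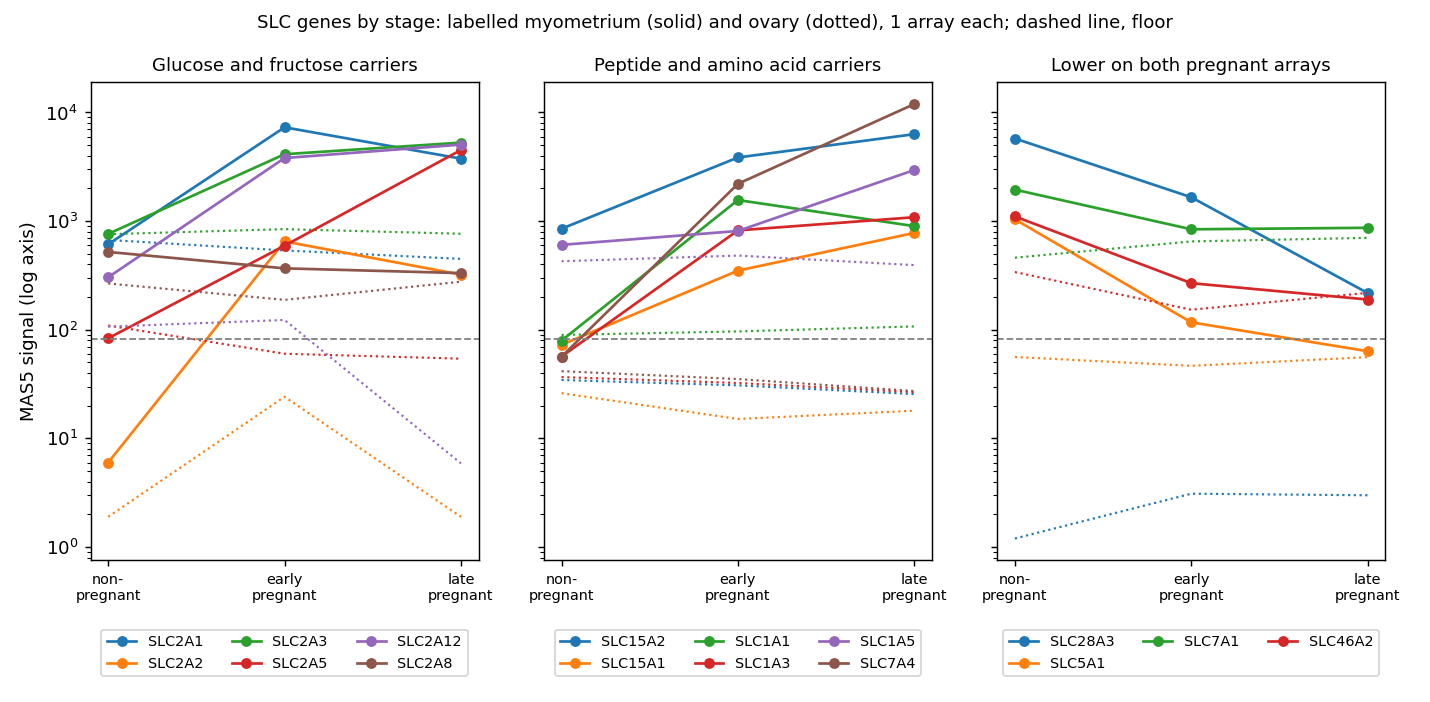
MAS5 signal (log axis) by stage for chosen SLC genes on the arrays labelled myometrium (solid lines) and in ovary (dotted lines), 1 array a point; the dashed line is the floor. SLC2A1, SLC2A3, SLC2A5, SLC2A12, SLC7A4 and SLC15A2 are higher on both pregnant arrays labelled myometrium, SLC28A3, SLC5A1, SLC7A1 and SLC46A2 are lower there, and the ovary lines of SLC2A1, SLC2A3, SLC1A5 and SLC7A1 lie between 393.6 and 843.9.

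Zinc and other metal carriers differed from each other. Of 8 zinc carriers 3 were 2-fold higher and 0 lower at each pregnant stage. Of all measured probe sets, 8.76% were higher and 10.3% lower early, and 10.9% and 12.6% late. SLC39A2 was 7.71-fold and 4.60-fold higher, the epithelial zinc importer SLC39A4 read 85.5, 184.5 and 285.6, and the vesicular zinc exporter SLC30A3 read 168.7, 771.9 and 886.5. The importers SLC39A1, SLC39A7 and SLC39A14 stayed within 2-fold.

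Of the metal-binding partners, the zinc-binding metallothionein MT1A read 935.4, 3392.1 and 2228.7, whereas MT3 read 5462.8, 692.3 and 426.8. The transferrin receptor TFRC, which brings iron into cells, was the 1 of 6 in its list that passed between tissues. In all, 2.23% of tested probe sets passed as higher on the arrays labelled myometrium. TFRC was under the floor on each ovary array. It read 223.5, 1296 and 622.8 on the arrays labelled myometrium, which were at least 6.92-fold higher on average (limma adjusted p = 0.0425).

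Among the iron, copper and magnesium carriers 0 of 5 were 2-fold higher than on the non-pregnant array (8.76% of all early and 10.9% late). With 5 genes, 0 cannot be told from these shares. The intracellular copper carrier SLC31A2 read 1596.4, 224.2 and 841, lowest on the early pregnant array, while the copper importer SLC31A1 varied by at most 1.24-fold. SLC11A2 read 412.9, 397 and 128.4, lower on the late pregnant array alone. SLC25A37, the mitochondrial iron importer also called mitoferrin, read 226.3, 600.7 and 574.5.

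The other mitochondrial carriers that were 2-fold higher at both pregnant stages were SLC25A20, which brings acylcarnitines in for fat oxidation, at 658, 2440.9 and 1357.2, and SLC25A48, at 70.2, 213.4 and 1060.2. In all, 5 of 20 mitochondrial carriers were higher and 1 lower early (8.76% and 10.3% of all measured probe sets). Late, 3 were higher and 0 lower (10.9% and 12.6% of all). The median log2 ratios of this class were 0.28 and 0.26. Carriers and channels of the mitochondrial membranes without an SLC symbol had 0 of 10 genes 2-fold higher at either stage. Such a short list cannot tell 0 from the same shares of all.

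The fatty acid carrier SLC27A6 read 200.8, 1035.7 and 413.2, 5.16-fold and 2.06-fold higher, although its next probe set showed 106.3, 168.1 and 116.1. SLC29A1, an equilibrative nucleoside carrier, read 34.7, 192.2 and 244.2. The concentrative nucleoside carrier SLC28A3 had the opposite order, 3.47-fold and 26.4-fold lower, so the 2 measured nucleoside carriers went in opposite directions. In the Golgi, the GDP-fucose carrier SLC35C1 read 99.5, 333.9 and 493.1, and SLC35A3 varied by at most 1.29-fold.

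SLC46A2 was 4.11-fold and 5.81-fold lower on the pregnant arrays, at 1104.1, 268.6 and 189.9. The proton-coupled folate carrier SLC46A1 read 351.2, 383.7 and 924.8 and was highest late. The anion exchanger SLC26A6 read 75.2, 527.9 and 415.1 and was at least 6.46-fold and 5.08-fold higher, while the sodium-proton exchanger SLC9A4 read 195.3, 237.1 and 96.4 and was lower on the late pregnant array. The scaffold SLC9A3R1, which anchors carriers at the apical membrane of epithelia, read 2929.7, 1347.6 and 1877.1. Its relative PDZK1 read 1851.2, 116.6 and 25.1, and both were highest on the non-pregnant array labelled myometrium.

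Between the pregnant arrays labelled myometrium, the largest ratios measured above the floor on both arrays were those of SLC2A5 (7.59-fold higher late), SLC7A4 (5.42-fold), SLC25A48 (4.97-fold), SLC31A2 (3.75-fold) and SLC1A5 (3.64-fold). Lower late were SLC28A3 (7.61-fold), SLC11A2 (3.09-fold), SLC27A6 (2.51-fold), SLC9A4 (2.46-fold) and SLC41A1 (2.45-fold). With the late array under the floor, SLC5A5 was at least 2.93-fold, SLC36A2 at least 2.77-fold and SLC7A9 at least 2.56-fold lower. The early and late pregnant arrays therefore differed from each other in which carriers were highest. Of 7 trophoblast markers 1 was 2-fold higher late, PEG10 at 435.2 early and 8302.1 late, and 1 was 2-fold lower. Their median log2 ratio, late against early, was -0.19, and their part in the carrier ratios was not tested.

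Where a gene had several probe sets, the agreement between them was a check on these ratios. For 28 SLC genes the next probe set was above the floor on at least 2 arrays. Of the 10 genes with a 2-fold ratio early against non-pregnant on the arrays labelled myometrium, 9 had the same direction in the next probe set and 6 also reached 2-fold. Late against non-pregnant, the numbers were 10, 9 and 4, and SLC3A1 was the gene with an opposite 2-fold ratio. Besides SLC3A1, the genes short of 2-fold in the next probe set at one or both stages were SLC1A1, SLC25A37, SLC27A6, SLC30A3, SLC35F5 and SLC37A4. Between tissues, 11 genes differed 2-fold, 10 had the same direction and 4 also reached 2-fold.

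Partners of the carriers gave the surrounding picture. The sodium pump makes the sodium gradient used by coupled carriers. The 8 genes of its list on the array were beta subunits and FXYD regulators, with no alpha subunit. Of the 7 measured, 0 passed the threshold between tissues. In all, 2.84% of tested probe sets passed as higher in ovary and 2.23% as higher on the arrays labelled myometrium. The partner lists are too short to tell 0 from those shares. The beta subunit ATP1B1 was highest on the non-pregnant array labelled myometrium, at 8678.6, 1242.8 and 2187.9. The regulator FXYD3 was lowest there, at 131.2, 2551.6 and 2500.8. Of the SLCO organic anion carriers 1 of 3 passed, SLCO1A2, which was under the floor in ovary and read 625.9, 569.9 and 428.5 on the arrays labelled myometrium, at least 6.54-fold higher on average (limma adjusted p = 0.0131).

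Of 5 aquaporins AQP3, a water and glycerol channel, passed, at 136.7, 80.8 and 40.7 in ovary and 14147.8, 2454.1 and 2356.4 on the arrays labelled myometrium (difference -5.48, limma adjusted p = 0.00687). AQP8 had another stage order, at 31.5, 8816.6 and 4616.5, and did not pass (limma adjusted p = 0.136). Of 6 chaperones and scaffolds EMB, which escorts monocarboxylate carriers, passed as higher on the arrays labelled myometrium (difference -2.19, limma adjusted p = 0.0216). Among carbonic anhydrases 0 of 3 passed, among amino acid response genes 0 of 6 and among mitochondrial membrane genes 0 of 10. The shares of all probe sets were 2.84% higher in ovary and 2.23% higher on the arrays labelled myometrium.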

How the data were processed

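The authors deposited linear signal intensities, obtained with MAS5 according to the submitters' processing notes. The sources used here do not state the version or settings of MAS5. Per the labels' protocols, 6 ug of Trizol-extracted total RNA was labelled for each array. The table held 24123 probe sets, of which 124 control probe sets were left out. Gene names came from the platform annotation, in which 10069 probe sets had 1 symbol, 198 several and 13732 none; 5 SLC probe sets with several symbols were not used. The gene identifiers of 117 of the 119 SLC genes gave the same symbol in current RefSeq records.

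Signals were floored at 81.7 and log2-transformed. Tissue and stage were fitted additively with limma 3.58.1 in R 4.3.3 (eBayes with an intensity trend, 2 residual degrees of freedom), checked on simulated data. Named genes were all SLC genes past the threshold, and others by size of difference, by bound, by signal and by probe set disagreement; other members of a group are named to complete it. The members, classes, partner and marker lists were chosen with earlier results of these data known. Alternatives were floors of 33.7 and 246.2, a pseudocount of 16, quantile normalization, median centring, no filter, no trend, no stage block, leaving out a stage, and averaged probe sets; the next probe set was added after seeing the data. Precision is limited by the number of arrays. Summaries used Python 3.11.15.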

Additional observations from a re-analysis of the deposited data

How the results depend on the processing

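The 2 SLC genes higher in ovary became 1 with the 60th percentile floor, 0 without the filter on low signals, 4 without the stage block and 0 whichever stage was left out. The 7 higher on the arrays labelled myometrium became 0 without the filter, 11 without the block and 0 to 10 when a stage was left out. Quantile normalization and centring kept all 9 calls. The 25th percentile floor and the pseudocount of 16 also kept all 9, and each gained SLC28A3, SLC6A4 and SLC9A4. Over all probe sets these 2 settings called 508 and 545 higher in ovary, and 440 and 471 on the arrays labelled myometrium. Without the intensity trend 8 were kept, SLC25A5 was lost and SLC2A4RG was gained. Under the next probe set SLC3A1 reversed to 0.36; the cause was not tested.

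In ovary, the floor at the 25th percentile gave 1 higher and 5 lower early against non-pregnant, 4 and 7 late against non-pregnant, 2 and 8 late against early, and 1 and 2 on both pregnant arrays. The 60th percentile floor gave 0 lower, 1 and 0, 0 and 0, and 0 lower. A pseudocount of 16 gave 1 higher, 5 lower, 4 lower, and 2 and 0 on both. Quantile normalization gave 1 higher early, and 2 and 1 late against early. Averaged probe sets gave 1 and 1 late against non-pregnant; the next probe set gave 1 lower there and 2 higher late against early. On the arrays labelled myometrium, the 60th percentile floor, which leaves fewer genes measured, gave 4 lower late against non-pregnant and 3 lower late against early. It also gave 15 higher on both pregnant arrays. Over all measured probe sets 1163 rather than 2020 were then lower late against non-pregnant, and 428 rather than 873 late against early. Higher in ovary were 12 (25th percentile floor) or 11 (pseudocount) in the non-pregnant pair, and 2 and 5 (60th percentile floor) in the early and late pregnant pairs. The other 161 recomputed counts stayed within 1.5 times. Small counts and signals near the floor are the least certain.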
